A study of Mus musculus with 7 samples.

Results

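The Smad family was examined as 27 ATAC-seq sites, out of 75880 sites in all, in wild-type (WT) and Smad2/3 double knockout (DKO) mouse EpiLCs. The 27 are every listed site whose midpoint lies within 50 kb of a curated RefSeq transcription start site (TSS) of Smad1, Smad2, Smad3, Smad4, Smad5, Smad6, Smad7 or Smad9. No site was counted for more than 1 of these genes. ATAC-seq reads out open DNA, where the transposase Tn5 can insert its adapters, as at many promoters and enhancers. EpiLCs are epiblast-like cells, obtained from naive ESCs by culture with activin A and Fgf2, and were taken at day 2. The WT cells were EpiLCs of the 129/Sv//Ev line CCE, in 3 differentiations. The DKO cells were EpiLCs of 1 clone, KT15.1F6, on the same strain, also in 3 differentiations. This clone was made by removing the region around Smad3 exon 1 with a Cas9 nickase in ESCs homozygous for the targeted allele Smad2 tm1Rob. Genomic DNA of WT EpiLCs treated with Tn5 served as 1 control library. As each genotype is 1 line, effects of the line and of the genotype cannot be told apart.

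Smad proteins carry signals of the TGF-beta family from receptors at the cell surface to the genome. Smad2 and Smad3 are phosphorylated by the receptors of Nodal, activin and TGF-beta, and Smad1, Smad5 and Smad9 by those of the bone morphogenetic proteins (BMPs). Both kinds join Smad4, the common partner, and enter the nucleus, where they bind DNA with other factors. Smad6 and Smad7 are inhibitory Smads, which are induced by the pathway and dampen it at the receptors.

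The values are the authors' deposited concentrations, the log2 of the mean normalized reads at a site over the 3 differentiations of a genotype, so that a difference of 1 is a 2-fold change. Differences are given as DKO minus WT. Each genotype has a mean only, so the spread between differentiations and the depth of each library are unknown here, no test was run, and no difference was set against replicate error. Sites past 1.5-fold in either direction are counted beside the same count over all sites. Over all sites the median difference was -0.08, with quartiles of -0.39 and 0.20, and the quartiles of the concentration over both genotypes were 4.14, 5.00 and 6.13.

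The Smad3 promoter was the site of the family that differed most between the genotypes. At the site chr9:63757970-63758460, centred 221 bp upstream of the Smad3 TSS, the WT concentration was 5.42, or a mean of 42.8 normalized reads, and the DKO concentration was -0.10. This is the lowest DKO value in the whole table, and is shared by 164 sites. The lowest WT value of any site is -0.09, so the listed values appear to stop near this level in both genotypes. At such a site the size of the difference depends on the WT level. The difference of -5.52 was the 4th lowest of all sites. Only 4 of the 164 sites with this DKO value, the Smad3 promoter among them, had a WT concentration of 5.42 or more, whereas 30936 sites of the table did. The second site upstream of Smad3, chr9:63759030-63759220, centred 1131 bp from the TSS, had a concentration of 2.81 in WT and 0.34 in DKO, a difference of -2.47. The upstream guides used to delete Smad3 exon 1 match the reference within the promoter site, so the designed deletion takes the gene side of that site and stops short of the second site. The borders in this clone were not analysed here. At missing DNA, the loss of the sequence and a loss of accessibility cannot be told apart.

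The sites shown here are those of Smad3 and Smad1 that differed by more than 1.5-fold, as 300 bases of the reference genome (RefSeq, GRCm38.p6) centred on each midpoint and read 5′ to 3′ on the minus strand, from which both genes are transcribed. Capitals mark matches to CAGAC, the core Smad-binding element, on either strand. None of the other strings searched, GTCTAGAC, GGCGCC, TGTGGATT, ATGCAAAT and GGATTA, was found in these 6 windows. The first 3 lines are Smad3 sites, at chr9:63758066-63758365, chr9:63758976-63759275 and chr9:63803301-63803600, and the last 3 are Smad1 sites, at chr8:79354836-79355135, chr8:79384911-79385210 and chr8:79386401-79386700.
Smad3 promoter, 221 bp upstream: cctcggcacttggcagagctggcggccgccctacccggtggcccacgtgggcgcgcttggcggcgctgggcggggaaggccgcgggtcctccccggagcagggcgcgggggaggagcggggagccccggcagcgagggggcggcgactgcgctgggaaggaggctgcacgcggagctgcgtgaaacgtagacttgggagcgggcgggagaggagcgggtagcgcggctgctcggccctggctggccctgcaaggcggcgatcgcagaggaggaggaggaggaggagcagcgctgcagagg
Smad3, 1131 bp upstream: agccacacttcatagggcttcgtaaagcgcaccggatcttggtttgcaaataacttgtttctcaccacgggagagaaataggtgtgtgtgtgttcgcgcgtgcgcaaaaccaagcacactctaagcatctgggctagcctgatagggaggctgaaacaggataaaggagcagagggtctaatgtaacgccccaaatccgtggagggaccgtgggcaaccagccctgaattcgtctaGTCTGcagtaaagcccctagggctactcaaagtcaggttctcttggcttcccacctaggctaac
Smad3, 45456 bp upstream: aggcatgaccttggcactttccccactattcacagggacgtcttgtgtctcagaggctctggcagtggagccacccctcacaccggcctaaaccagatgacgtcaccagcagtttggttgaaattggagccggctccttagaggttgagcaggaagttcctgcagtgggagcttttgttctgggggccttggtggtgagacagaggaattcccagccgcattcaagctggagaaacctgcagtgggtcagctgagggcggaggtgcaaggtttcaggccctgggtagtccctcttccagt
Smad1 intron 3, 44443 bp downstream: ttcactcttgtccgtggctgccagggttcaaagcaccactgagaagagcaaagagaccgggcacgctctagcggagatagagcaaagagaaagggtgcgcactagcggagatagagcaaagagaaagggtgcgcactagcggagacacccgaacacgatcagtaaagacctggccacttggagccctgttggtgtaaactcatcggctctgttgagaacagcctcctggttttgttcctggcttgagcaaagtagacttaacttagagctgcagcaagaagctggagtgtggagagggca
Smad1 intron 1, 14368 bp downstream: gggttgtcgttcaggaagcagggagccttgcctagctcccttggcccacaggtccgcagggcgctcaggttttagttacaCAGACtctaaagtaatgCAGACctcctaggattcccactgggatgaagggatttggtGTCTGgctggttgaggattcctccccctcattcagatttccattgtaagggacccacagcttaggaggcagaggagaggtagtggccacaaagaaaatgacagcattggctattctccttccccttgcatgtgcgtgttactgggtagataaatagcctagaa
Smad1 intron 1, 12878 bp downstream: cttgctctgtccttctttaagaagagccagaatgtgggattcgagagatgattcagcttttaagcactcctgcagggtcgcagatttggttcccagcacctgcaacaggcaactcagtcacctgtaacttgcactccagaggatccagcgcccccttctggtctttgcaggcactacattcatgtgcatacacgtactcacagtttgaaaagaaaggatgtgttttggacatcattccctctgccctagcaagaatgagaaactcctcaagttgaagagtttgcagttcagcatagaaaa
The Smad3 promoter window is 76.0% G and C and holds no CAGAC. The window 1131 bp upstream has 1 match, and the Smad1 intron 1 window at 14368 bp has 3. The Smad1 intron 3 window is a tandem repeat in part, since a run of 44 bases recurs 34 bases further on, and 0% of it is soft-masked as a repeat in the reference. No other Smad window held a recurring run of more than 18 bases.

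The third Smad3 site went the other way. At the intergenic site chr9:63803250-63803650, 45456 bp upstream of the Smad3 TSS, the concentration was 6.09 in WT and 6.73 in DKO, a difference of 0.64. Among sites of the highest quartile of concentration, 1.08% had a larger difference. No site had its midpoint within the Smad3 transcript, which is 111228 bp long, and the promoter site overlaps only its start. The next listed site on the gene side was 155100 bp from the promoter site. A gap at least as long separated 2.45% of neighbouring sites in the table, against a median gap of 17970 bp. The midpoints of all 3 listed Smad3 sites lie upstream of the TSS.

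Smad2, the other inactivated gene, kept an open promoter. Its promoter site chr18:76241010-76242400, centred 4 bp from the TSS in exon 1, had a concentration of 8.35 in WT and 8.28 in DKO, the highest WT value of the 27 sites, and a difference of -0.07. The only other listed site, intergenic and 31991 bp upstream (chr18:76209590-76209830), was weak, at 3.24 in WT and 3.71 in DKO, a difference of 0.47. A difference larger than that occurred at 22.9% of the sites in the lowest quartile of concentration. The promoters of the 2 inactivated genes thus had differences of -0.07 at Smad2 and -5.52 at Smad3.

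**Figure D1:**
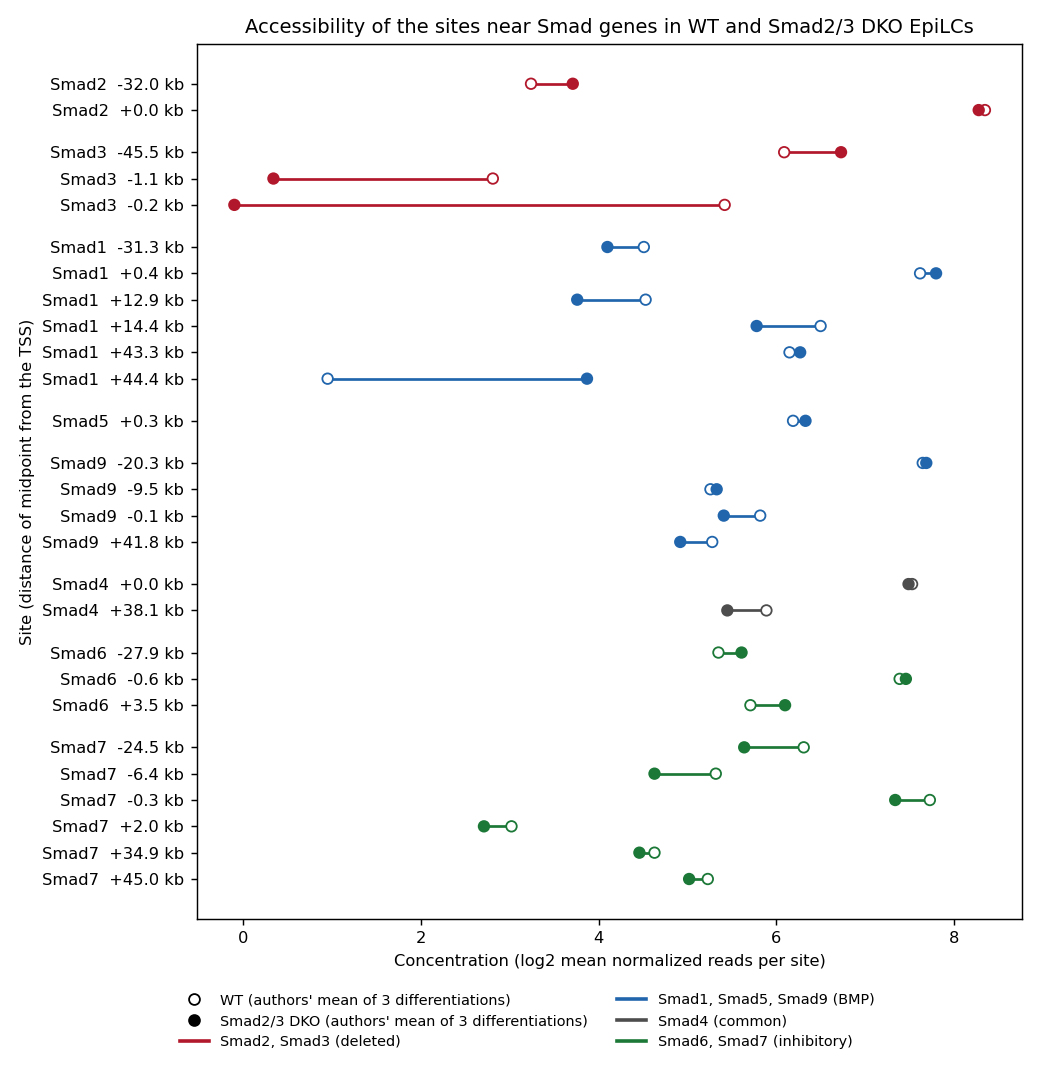
Concentration (log2 mean normalized reads per site) of the 27 Smad sites in WT (open circles) and Smad2/3 DKO EpiLCs (filled circles), each point being the authors' mean over 3 differentiations, with sites named by gene and by distance from the TSS. The Smad3 sites at 221 and 1131 bp upstream drop from 5.42 to -0.10 and from 2.81 to 0.34, the Smad1 site at 44443 bp goes from 0.95 to 3.87, and the promoters of the other 7 genes have differences between -0.41 and 0.18.

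Of the 27 Smad sites, 6 were lower in DKO by more than 1.5-fold, or 22.2%, against 16.0% of all 75880 sites, and 2 were higher, or 7.41%, against 8.51%. The 6 lower sites belong to Smad3, Smad1 and Smad7, with 2 each, and the 2 higher ones to Smad3 and Smad1. Without the 2 sites just upstream of the Smad3 TSS, 4 of 25 were lower, or 16.0%. The median difference over the 27 sites was -0.17. By group it was -0.07 over the 5 sites of the inactivated genes, 0.04 over the 11 sites of the BMP Smads, -0.24 over the 2 Smad4 sites and -0.21 over the 9 sites of the inhibitory Smads. Leaving out the 2 sites just upstream of the Smad3 TSS moved the first of these to 0.47, over 3 sites. Sites with few reads differ more often, as 28.6% of the sites in the lowest quartile of concentration were past 1.5-fold lower and 19.1% past 1.5-fold higher. Of the 27 Smad sites, 4 fell in that quartile, 1 each at Smad1, Smad2, Smad3 and Smad7.

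**Figure D2:**
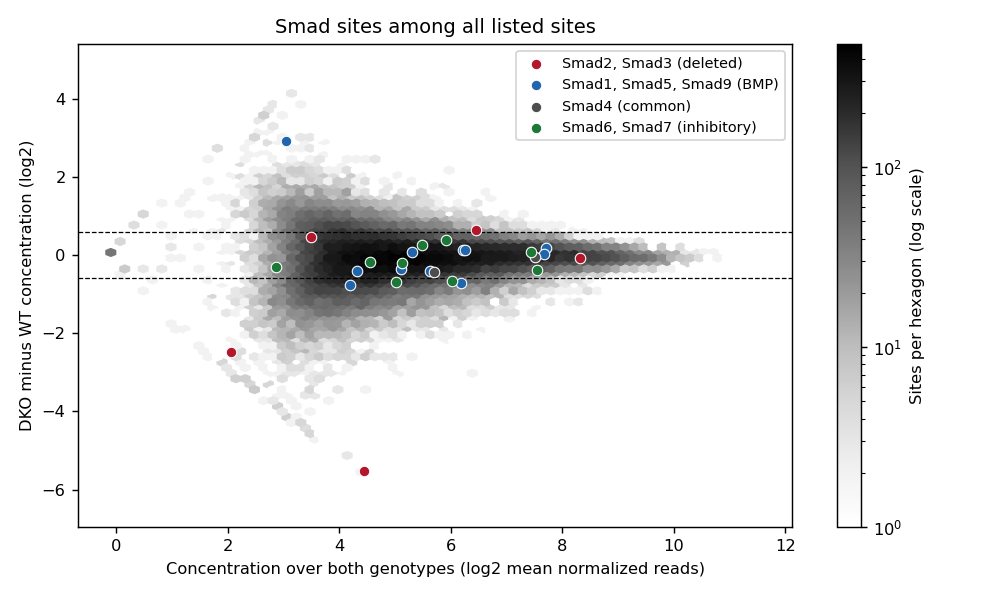
Difference between DKO and WT (log2) against the concentration over both genotypes (log2 mean normalized reads) for all 75880 sites, as grey hexagons shaded by the number of sites on a log scale, with the 27 Smad sites coloured by group and dashed lines at 1.5-fold. The Smad3 promoter lies at a difference of -5.52 and a concentration of 4.45, and the Smad1 intron 3 site at 2.92 and 3.05. Between the dashed lines lie 19 of the 27 sites.

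Each of the 8 genes had 1 listed site within 1 kb of its own TSS, and outside Smad3 the differences of these promoter sites ran from -0.41 to 0.18. The promoter of Smad1, a BMP Smad, had a concentration of 7.62 in WT and 7.80 in DKO (chr8:79398350-79399750, difference 0.18). Smad5, whose only site is its promoter, had 6.19 and 6.33 (chr13:56702830-56703860, difference 0.14). Smad9, also known as Smad8, had 5.82 and 5.41 (chr3:54755130-54755770, difference -0.41). Among the BMP Smads the promoter was therefore slightly higher in DKO at 2 genes and lower at Smad9. The promoter of Smad4 had 7.53 in WT and 7.49 in DKO (chr18:73703290-73704290, difference -0.04). Smad6 had 7.39 and 7.46 (chr9:64021940-64023340, difference 0.07), and Smad7 had 7.73 and 7.34 (chr18:75366380-75367760, difference -0.39). Thus 1 of 8 Smad promoters, that of Smad3, was lower by more than 1.5-fold and 0 of 8 were higher. With the 2 Smad sites at the starts of other genes, it was 1 of 10 and 0 of 10, against 4.17% and 3.69% of the 15001 sites within 1 kb of any TSS, whose median difference was 0.01. Without the Smad3 promoter, into which the designed deletion cuts, 0 of the 7 other Smad promoters were lower by more than 1.5-fold.

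The promoters differ in width, so their levels were also set per length, as log2 normalized reads per kb. In WT the order was Smad2 at 7.87, Smad4 at 7.53, Smad7 at 7.27, Smad1 at 7.13, Smad6 at 6.90, Smad9 at 6.46, Smad3 at 6.45 and Smad5 at 6.15. In DKO it was Smad2 at 7.80, Smad4 at 7.49, Smad1 at 7.31, Smad6 at 6.97, Smad7 at 6.88, Smad5 at 6.29, Smad9 at 6.05 and Smad3 at 0.93. Smad2 and Smad4 had the highest levels per kb in both genotypes, and Smad7 moved from the third place in WT to the fifth in DKO. Whether neighbours in either order differ beyond their spread is unknown. The median G and C content of the 8 promoter windows was 74.4%, against 65.0% for all sites within 1 kb of a TSS, with the lowest at Smad7 (61.3%) and the highest at Smad2 (79.3%).

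Of the 17 Smad sites over 1 kb from any TSS, 5 were lower by more than 1.5-fold, or 29.4%, against 18.9% of the 60879 such sites of the table, and 2 were higher, or 11.8%, against 9.70%. One of the 5 lower sites is the second Smad3 site. In intron 1 of Smad1, a pair of sites 14368 and 12878 bp downstream of the TSS were both lower in DKO. The first (chr8:79384830-79385290) had a concentration of 6.50 in WT and 5.78 in DKO, a difference of -0.72, and 2.99% of sites in the highest quartile of concentration had a lower one. The second (chr8:79386390-79386710) had 4.53 and 3.76, a difference of -0.77, and 11.4% of sites in its quartile had a lower one. In intron 3, the site chr8:79354840-79355130, 44443 bp downstream, had 0.95 in WT and 3.87 in DKO, or means of 1.93 and 14.6 normalized reads. Its difference of 2.92 was the 83rd highest in the table, and 0.374% of sites in the lowest quartile of concentration had a larger one. This is the site whose window holds the tandem repeat, and the part of that repeat in the result was not tested. A neighbour in the same intron, 43253 bp downstream (chr8:79355940-79356410), had 6.15 and 6.27, a difference of 0.12. The last, intergenic and 31327 bp upstream (chr8:79430640-79430870), had 4.51 and 4.10, a difference of -0.41. Smad1 thus held lower, higher and nearly equal sites side by side.

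None of the 3 other Smad9 sites passed 1.5-fold, and their differences ran from -0.36 to 0.07. One is the promoter of Exosc8, an exosome subunit gene, 20262 bp upstream of the Smad9 TSS, with 7.65 in WT and 7.69 in DKO. Another lies in intron 7 of Alg5, with 5.26 and 5.33. The third overlaps coding exon 6 of Smad9, nearest to the TSS of Rfxap, with 5.28 and 4.92. At Smad4, the site in intron 4 (chr18:73665450-73665840) had 5.89 in WT and 5.45 in DKO, a difference of -0.44, so both Smad4 sites were lower in DKO and neither passed 1.5-fold. Of 3251 genes with 2 sites within 50 kb, 28.2% had both sites lower.

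**Figure D3:**
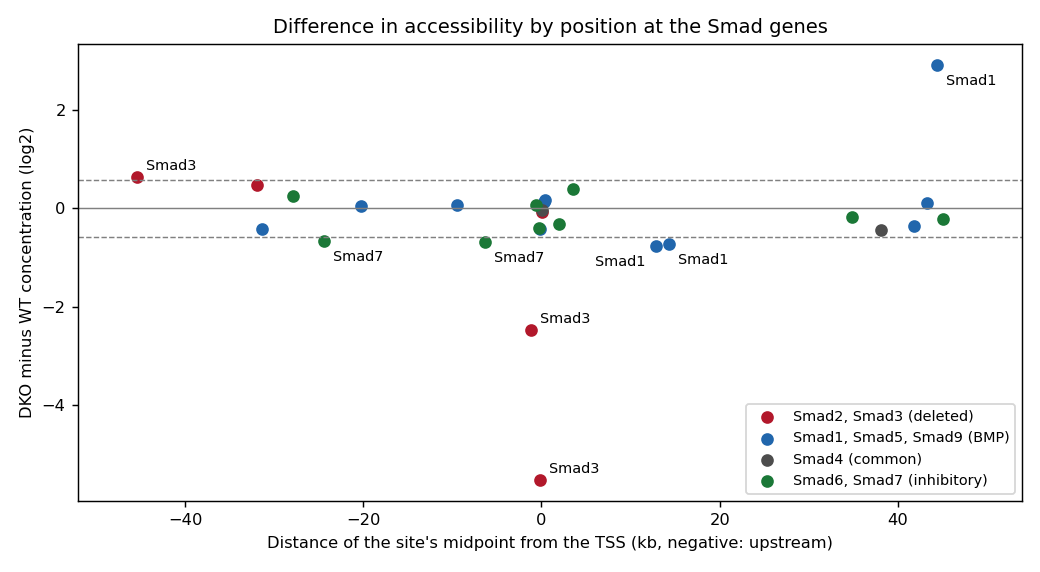
Difference between DKO and WT concentration (log2) for the 27 Smad sites by distance of the midpoint from the TSS (kb, negative values upstream), with dashed lines at 1.5-fold and names on the 8 sites past it. The 2 Smad3 sites at the start of the gene lie at -5.52 and -2.47, the other promoters lie between -0.41 and 0.18, and the sites past the lines elsewhere belong to Smad1, Smad7 and Smad3.

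The sites of Smad7 were lower in DKO and those of Smad6 higher, as were most sites in their flanks, described further on. At Smad7, which turns receptors over through ubiquitin ligases, all 6 sites were lower in DKO, with differences from -0.69 to -0.17 and a median of -0.35. An intergenic site 24475 bp upstream (chr18:75342480-75343300) had 6.31 in WT and 5.64 in DKO, a difference of -0.67. A site 6375 bp upstream in intron 6 of Gm20544, whose TSS lies beside that of Smad7 (chr18:75360810-75361170), had 5.32 and 4.63, a difference of -0.69. These 2 passed 1.5-fold. Both of them, and also the Smad7 promoter site, lie nearest to the TSS of Gm20544. The promoter, at -0.39, had a difference that 10.7% of the sites in the highest quartile of concentration were below. The 3 others, within coding exon 1 and 34850 and 45045 bp downstream, had differences of -0.31, -0.17 and -0.21. At Smad6, which acts mainly on BMP signals, all 3 sites were higher in DKO and none passed 1.5-fold. Its intron 1 site, 3539 bp downstream (chr9:64018220-64018820), had 5.71 in WT and 6.10 in DKO, a difference of 0.39. A site 27926 bp upstream had 5.35 and 5.61, a difference of 0.26. It lies in intron 1 of another gene, 1110036E04Rik, and within 1 kb of the TSS of that gene. Of 2328 genes with 6 sites within 50 kb, 6.1% had all of them lower, and of 3725 genes with 3 sites, 16.5% had all of them higher. Many of these genes share sites with their neighbours.

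The wider surroundings of the genes also differed between the genotypes. Smad2, Smad4 and Smad7 all lie on chromosome 18, and Smad3 and Smad6 lie 264065 bp apart on chromosome 9. Flanking sites were taken as those within 500 kb of a gene's TSSs but over 50 kb from them. Around Smad2, 19 of 20 flanking sites were lower in DKO, with a median difference of -0.58, and 0.416% of 25747 genes with at least 5 flanking sites had a median as low. Around Smad4 it was 28 of 34, with a median of -0.36, and around Smad7 21 of 26, with a median of -0.34. These compare with a median of -0.16 over all 2505 sites of chromosome 18. Around Smad3 only 2 of 13 flanking sites were lower, with a median of 0.34, and around Smad6 4 of 13, with a median of 0.19. Of the 25747 genes, 0.905% had a median as high as that of Smad3, and 8.03% one as high as that of Smad6. A median as low as that of Smad4 occurred at 2.73%, and one as low as that of Smad7 at 3.49%. The flanks of Smad1, Smad5 and Smad9 had medians of 0.00, -0.10 and -0.01. Over the 25747 genes the median of these medians was -0.03. The flanks of Smad2 and Smad7 overlap, as do those of Smad3 and Smad6, and the Smad3 and Smad6 flanks include Smad sites of each other. Among the 4 lower flanking sites of Smad6 are the 2 at the start of Smad3, at -5.52 and -2.47.

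Set against the median of its own flank, a choice made after the values were seen, the calls changed at 4 sites. None of the 6 Smad7 sites then passed 1.5-fold, the lowest being at -0.35, and 3 of them were above 0. The Smad6 promoter stood at -0.12, so neither inhibitory Smad had all its sites of 1 sign on this scale. The flank median used for Smad6 includes the 2 sites at the start of Smad3. The Smad3 site 45456 bp upstream stood at 0.30 in place of 0.64. The Smad2 site 31991 bp upstream stood at 1.05 in place of 0.47, past 1.5-fold. The Smad1 intron sites were at -0.72, -0.77 and 2.92 on this scale too, and the 2 sites at the start of Smad3 at -5.86 and -2.81. On this scale 4 sites were lower and 2 were higher by more than 1.5-fold. The scale was not applied to all sites, so no share over all sites stands beside these counts. What sets the level of the flanks was not tested.

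**Figure D4:**
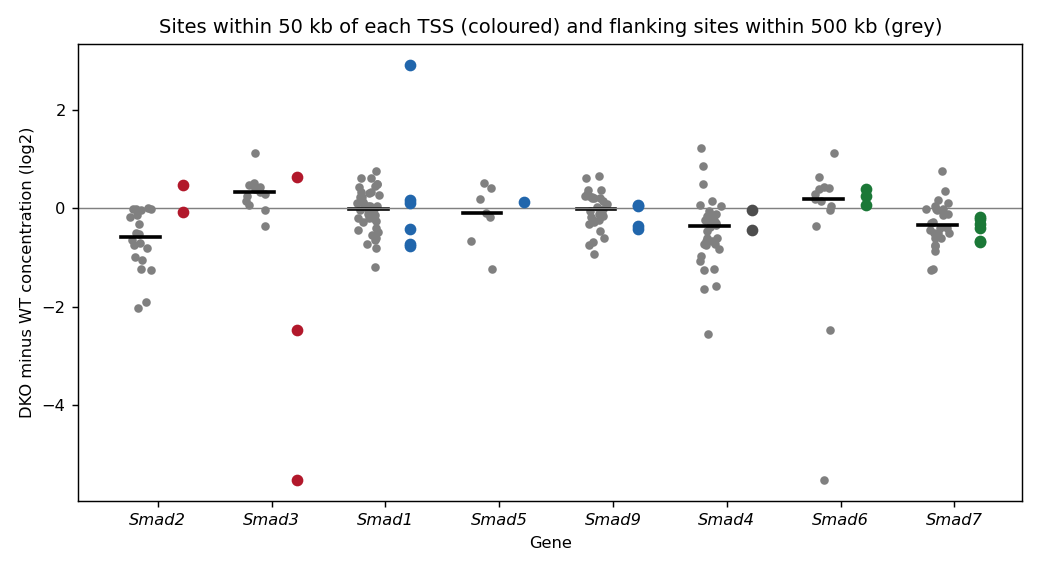
Difference between DKO and WT concentration (log2) for the sites within 50 kb of each Smad gene (coloured) and for the flanking sites within 500 kb (grey, with a black bar at their median). The grey bars lie at -0.58, -0.36 and -0.34 for Smad2, Smad4 and Smad7, at 0.34 and 0.19 for Smad3 and Smad6, and at 0.00, -0.10 and -0.01 for Smad1, Smad5 and Smad9. The grey points of Smad6 include the 2 lowest Smad3 sites.

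Short strings bound by Smads and their partners were searched on both strands in the 300 bases around each midpoint. The palindromic Smad-binding element GTCTAGAC was found at 1 of 27 Smad sites, the Smad7 promoter, and at 0.224% of all sites. The core element CAGAC was found at 13 of 27 Smad sites, or 48.1%, and 52.5% of all sites. The GC-rich Smad site GGCGCC was found at 7, or 25.9%, and 9.29% of all sites. These 7 comprise the promoters of Smad1, Smad2, Smad4 and Smad9, that of Exosc8 and 2 Smad7 sites. The octamer ATGCAAAT, bound by POU factors, was found at 1 Smad site, 31991 bp upstream of Smad2, and at 3.16% of all sites. TGTGGATT, the string of FoxH1, a partner of Smad2 and Smad3, was found at 0 Smad sites and 1.07% of all sites, and the Otx2 string GGATTA at 0 and 8.71%. None of these strings contains another. The Smad windows had a median G and C content of 58.3%, against 51.0% over all sites. Of the Smad sites 37.0% lay within 1 kb of a TSS, against 19.8% of all sites. The shares were not matched for either, so they do not show that a string is enriched or depleted at Smad genes. A match describes the letters in the window and not binding.

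Genes that recruit, repress or turn over Smads were examined beside the family. Of 72 sites within 50 kb of 12 such genes, 6 were lower by more than 1.5-fold, or 8.33%, against the 16.0% of all sites, and 1 was higher, or 1.39%, against the 8.51%. Their median difference was -0.12. However, 30 of the 72 lay within 1 kb of a TSS, or 41.7%, against 19.8% of all sites. Over the table, sites that near a TSS passed 1.5-fold less often, with 4.17% lower and 3.69% higher. The regulator counts were not split by distance from a TSS. The lowest of the 72 was in intron 1 of Ski, a corepressor that binds Smads, 32645 bp downstream of the TSS (chr4:155189670-155190110). It had 6.32 in WT and 4.25 in DKO, a difference of -2.07. Skil, its relative, had a site 5403 bp upstream (chr3:31088950-31090360) with 6.56 and 5.78, a difference of -0.78. Foxh1 had 2 lower sites, at -0.66 and -0.65, both within neighbouring genes, Vps28 and Kifc2. Smurf1, a ubiquitin ligase, had a site in intron 6 of Kpna7 at -0.83, and Ppm1a, a phosphatase of Smads, had an intergenic site at -0.83. The higher site lay 17707 bp downstream of the TSS of Tgif1, a corepressor (chr17:70828930-70829210), with 1.65 in WT and 3.27 in DKO, a difference of 1.62. No site passed at Zfyve9, which presents Smad2 to receptors, nor at Tgif2, Smurf2, Nedd4l, Trim33 and Zeb2. Short of that threshold, all 7 Zeb2 sites were lower, with differences from -0.48 to -0.16, as were 8 of 10 Nedd4l sites. At Tgif2 3 of 5 sites were higher and at Zfyve9 1 of 2, while Smurf2 and Trim33 had 1 site each. How often genes with 7 sites have all of them lower was not counted.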

How the data were processed

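Chromatin accessibility was profiled by ATAC-seq in 3 differentiations each of WT and Smad2/3 DKO EpiLCs. Per the methods of the study and the submitters' processing notes, paired-end reads were mapped to mm10 (bowtie2), filtered for unique, non-blacklisted and non-duplicate reads (Samtools), sites were identified with DANPOS2 dpeak against a Tn5 genomic DNA control, and genotypes were compared with DiffBind. Versions, the DiffBind normalization and any shift of read ends are not given in the sources used here. A shift would move site borders by a few bases.

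The deposited values used are 3 columns of log2 concentrations, made by the authors as the log2 of mean normalized reads per site for DKO, WT and both. A further 3 columns hold the authors' own comparison (fold, p-value and FDR) and were not used. No column holds a library, so depth and replicate spread are unknown, no test could be run anew, and the comparison is a description throughout.

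Differences were computed as DKO minus WT concentration. Distances were taken between site midpoints and 31647 TSSs of 45756 curated RefSeq transcripts (NM and NR, 26180 genes) on GRCm38.p6, which is mm10. The family has 12 TSSs. Sites past 1.5-fold (0.585 on the log2 scale) were counted. The cells are of a 129 strain and printed sequences are those of the C57BL/6J reference. All sites of the 8 Smad genes are given. Of the 12 regulators of Smads, those with a site past 1.5-fold are described. The members and lists were chosen with earlier results of these data known. The alternatives tried were windows of 25 and 100 kb, the nearest TSS of any gene, a concentration of at least 4, centring, thresholds of 2-fold and 0.322 on the log2 scale, and, chosen after seeing the data, leaving out the 2 sites at the start of Smad3 and setting each site against its flank. The code was tested on simulated sites. Python 3.11.15, numpy 2.4.6, pandas 2.3.3 and matplotlib 3.10.9 were used.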

Additional observations from a re-analysis of the deposited data

How the results depend on the processing

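The Smad3 promoter difference was -5.44 after centring on the median of all sites. A window of 25 kb gave 17 sites with 6 lower and 0 higher by more than 1.5-fold, and medians of -0.31 over all, -2.47 for the inactivated genes, -0.04 for Smad4 and -0.35 for the inhibitory Smads. A window of 100 kb gave 48 sites with 10 lower. Keeping only sites whose nearest TSS is that of a Smad gene left 21 sites with 4 lower, without the 2 at Smad7. This setting also drops the Smad7 promoter site, which lies nearest to the TSS of Gm20544. A concentration of at least 4 left 1 higher site, without the Smad1 intron 3 site, and turned the median of the BMP Smads to -0.16. A fold of 2 left 2 lower sites and 1 higher, and a threshold of 0.322 on the log2 scale gave 11 and 4. Shares over all sites are given at 1.5-fold only, so counts at other thresholds show just how the calls move. For the changed windows and the nearest-TSS setting, these shares stay at 16.0% lower and 8.51% higher. Centring turned the median of the inactivated genes to 0.01, and leaving out the 2 sites at the start of Smad3 turned it to 0.47. Among the regulators, a fold of 2 left 1 lower site and a window of 25 kb left 2. The other counts stayed within 1.5 times, and the other medians within 0.1, of those reported. No paired analysis was possible because the table holds no column per differentiation, and for the same reason no differentiation could be left out. The unknown depth limits weak sites most, above all the Smad1 intron 3 site.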

Other observations

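Between 50 and 100 kb from the TSSs the table lists 21 more sites for the Smad genes, of which 4 (19.0%) were lower and 1 (4.76%) higher by more than 1.5-fold, against 16.0% and 8.51% of all sites, with a median difference of -0.20. The lowest lay 69861 bp upstream of the Smad2 TSS and nearest to the TSS of the microRNA gene Mir6358 (chr18:76171680-76172000), with a concentration of 5.74 in WT and 3.84 in DKO, a difference of -1.90. Downstream of Smad4, 2 intergenic sites nearest to Mex3c (chr18:73622840-73623600 and chr18:73626490-73627370) had differences of -0.60 and -0.73, and a site in intron 15 of Me2 (chr18:73771280-73771540), 67619 bp upstream of Smad4, had 1.76 in WT and 2.99 in DKO, a difference of 1.23. The fourth lower site, in exon 3 of the non-coding gene Gm4890 beyond the 3′ end of Smad1, had a difference of -0.61.

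Along chromosome 18 the lower values reached beyond the 3 Smad genes. In the 2 Mb before the Smad4 TSS, at lower coordinates, 37 of 39 sites were lower in DKO, with a median difference of -0.72. Between the Smad4 and Smad2 TSSs, which are 2.54 Mb apart, it was 61 of 79 sites that are not Smad sites, with a median of -0.23, and in the 2 Mb after the Smad2 TSS 55 of 73, with a median of -0.20. Over the whole chromosome 64.2% of sites were lower. These stretches were chosen after the values were seen, and what sets their level was not tested.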
